A study of Homo sapiens with 17 samples.

Results

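RNA of 22Rv1 cells that was pulled down with an antibody against N6-methyladenosine (m6A) was set against RNA pulled down with unspecific immunoglobulin G (IgG), and the 77311 regions listed in the deposited table of this line are described here. All regions of the table were taken, whatever their values. They are 77311 of the 326944 regions deposited for 3 prostate lines, the other tables holding 139373 regions for HPr1AR and 110260 for LNCaP. The labels give 2 m6A samples and 3 IgG samples of 22Rv1 among 17 samples. Both groups were wild type and vehicle treated, came from total RNA, and were made with the EpiMark N6-methyladenosine enrichment kit. The labels describe 3 biological samples per group, but m6A replicate 2 of 22Rv1 is not among them, and whether it entered the table is not known. Single samples have no values in the table, so the spread between them could not be measured, and every interval and p-value computed here covers counting error only. 22Rv1 is a single cell line, derived from a human prostate cancer xenograft that regrew after castration.

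m6A is a methyl mark on adenosine that a nuclear complex of METTL3, METTL14, WTAP and partner proteins writes while RNA is being made. FTO and ALKBH5 can remove it, and YTH-domain and IGF2BP proteins bind it and alter the splicing, translation or decay of the marked RNA. In mammalian messenger RNA the mark is known to gather in long exons, around stop codons and in 3′ untranslated regions, and to be sparse near exon junctions. Its usual core letters are GGAC, of which the A is methylated.

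Few of the sequences bearing on the results could be printed, since no genome of the files' build was at hand. The 5 microRNAs below lie under listed regions with many reads, and are shown because the same region also covers an exon of a protein-coding gene, so that its reads cannot be assigned to the microRNA. Both MALAT1 start sequences are shown because the short regions at the start of this RNA and the regions along its body differed in their reads. All come from RefSeq on GRCh38.p14. Capitals mark bases 2 to 8 (the seed) in the microRNAs and each GGAC in the MALAT1 sequences, which run from 250 bases before to 50 bases after a start on the plus strand.
hsa-miR-4292: cCCCUGGGccggccuugg
hsa-miR-3620-5p: gUGGGCUGggcugggcugggcc
hsa-miR-3620-3p: uCACCCUGcaucccgcacccag
hsa-miR-1282: uCGUUUGCcuuuuucugcuu
hsa-miR-1281: uCGCCUCCuccucuccc
MALAT1, first start, chr11:65497488-65497787: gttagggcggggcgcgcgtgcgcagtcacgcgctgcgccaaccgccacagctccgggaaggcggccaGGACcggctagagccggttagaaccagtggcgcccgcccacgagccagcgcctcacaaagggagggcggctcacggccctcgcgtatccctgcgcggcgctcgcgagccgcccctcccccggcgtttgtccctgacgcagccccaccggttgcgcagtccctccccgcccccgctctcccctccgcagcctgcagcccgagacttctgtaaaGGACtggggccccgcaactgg
MALAT1, second start, chr11:65498795-65499094: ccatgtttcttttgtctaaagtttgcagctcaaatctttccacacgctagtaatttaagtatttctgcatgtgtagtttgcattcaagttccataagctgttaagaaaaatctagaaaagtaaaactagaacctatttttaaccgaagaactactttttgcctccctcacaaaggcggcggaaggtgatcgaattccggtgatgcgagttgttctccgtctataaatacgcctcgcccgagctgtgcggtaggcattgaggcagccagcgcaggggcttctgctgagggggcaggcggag
The first start holds 2 GGAC on the transcript strand and the second holds 0. The earlier of these 2 lies before the start, and the later lies within the 50 bases after it. GGAC, searched on the transcript strand alone, occurred in 66.3% of 35116 RefSeq promoters of the same 300 bases. In the 50 bases after the start it occurred in 18.9% of them. A match therefore marks no methylated site. Where these sequences lie within the listed regions could not be placed, because the positions of the files belong to another build.

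The regions were made by the authors from neighbouring 20 bp windows spaced 10 bp apart, and each region is represented by 1 window, whose choice is not described. A region had a median width of 260 bp, between 20 and 4990 bp. By the authors' deposited table, 76773 of the 77311 regions (99.3%) passed an adjusted p of 0.05 and all were listed as up. The deposited log2 fold, between 14.03 and 30.97, subtracts the logarithm of the IgG reads 2 times, so it is no ordinary ratio. The 538 regions that missed the authors' threshold were exactly the 538 with 0 m6A reads. The whole reads of the representative window in each pull-down were therefore rebuilt from fold and p-value, for 77227 regions. The header names no numerator, and "m6A reads" are those whose logarithm enters with a plus sign. Windows held a median of 13 reads over both pull-downs, with quartiles of 9 and 28. The rebuilt depths were 3.30 M m6A and 4.82 M IgG reads (M, a factor of 1e+06), at which equal rates would give 40.6% m6A reads. Each region was tested against that share with a two-sided exact binomial test, adjusted by the Benjamini-Hochberg method over all regions at 0.05. "Higher" and "lower" below mean past this threshold in the m6A pull-down relative to IgG.

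By this test 43620 of 77227 regions (56.5%) were higher, 718 (0.93%) were lower and 32889 were not called. The median region had 77.8% m6A reads, which is a log2 ratio of 2.13 over equal rates, with quartiles at 50.0% and 93.75%. In 12515 regions (16.2%) the IgG pull-down had 0 reads. Calls followed the reads at hand, since 33.7% of regions with fewer than 10 reads were higher, against 49.0% at 10 to 19 reads, 72.8% at 20 to 39, 90.1% at 40 to 79 and 92.6% at 80 or more. A region that was not called is therefore not shown to be equal in both pull-downs. The number of lower regions rested on the settings, with 75 at an adjusted p of 0.01 and 2163 if both depths were taken as equal. Of the regions passing the authors' threshold, 276 were lower by the read ratio and 32793 were not called.

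**Figure D1:**
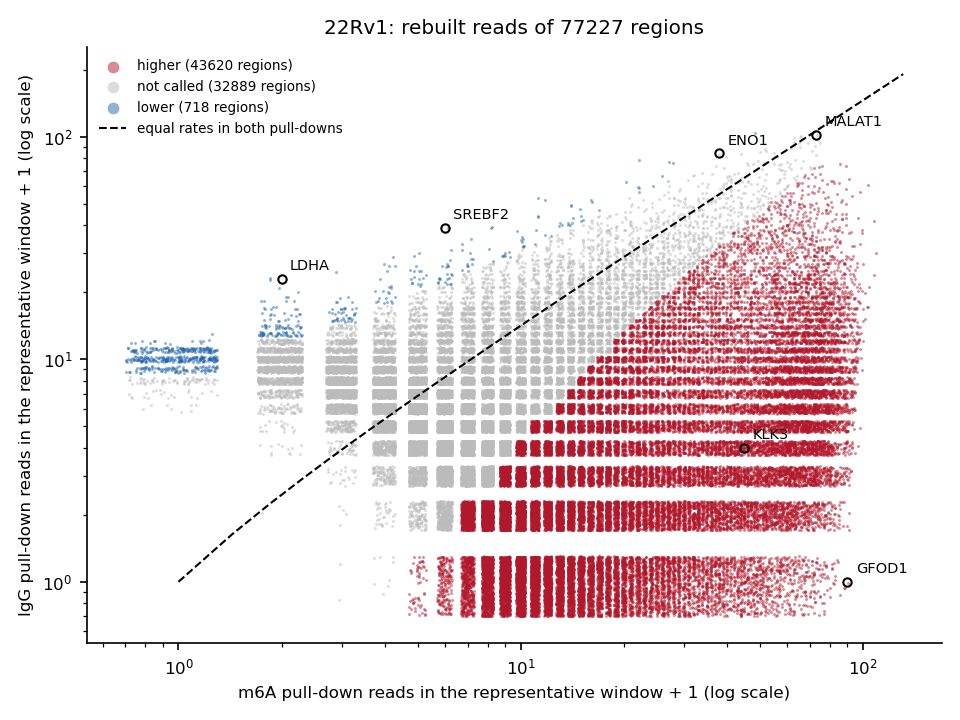
Rebuilt reads of each region's representative window, with IgG reads on the vertical axis and m6A reads on the horizontal axis, both on log scales after adding 1 and with a small random offset per point. Red marks the 43620 regions higher, grey those not called and blue the 718 lower in the m6A than in the IgG pull-down; the line marks equal rates, and most regions lie on its m6A side.

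Annotation named an exon of at least 1 gene for most regions. Of 13764 genes with a testable exon region, the exon region with the most reads was higher in 11825 (85.9%) and lower in 57 (0.414%), while 1882 genes were not called. Over these genes the median was 89.7% m6A reads. At least 1 exon region was higher in 12373 genes (89.9%) and at least 1 was lower in 439 (3.19%), and 305 genes had both kinds. Most listed genes thus had at least 1 exon region higher, which does not show a higher share along the whole transcript. Only the 305 genes had exon regions called on both sides of equal rates.

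Transcripts known from luminal prostate cells were present in the table. Exon regions were listed for 10 of 11 luminal markers, of which 8 were higher (background 85.9%), and TRPM8 had none. KRT8 and KRT18, the keratins of luminal epithelium, shared a region with 28 m6A and 32 IgG reads that was not called. Of 12 basal markers only DST and LAMB3 had an exon region, and KRT5, KRT14 and TP63 had none. Of 10 neuroendocrine markers 2 had an exon region: SCG2, a granule protein, had 33 m6A and 0 IgG reads and was higher, and ENO2, the neuronal enolase, had 28 m6A and 31 IgG reads in its fullest region, not called, while 2 of its 3 exon regions were higher. CHGA and SYP had none. Of 10 stromal markers 5 had an exon region and 4 were higher. Among them VIM, the intermediate filament vimentin, had 38 m6A and 2 IgG reads, FN1, fibronectin, 25 m6A and 0 IgG reads in 1 of its 2 higher exon regions of 24 listed, and COL1A1, a collagen chain, 8 m6A and 0 IgG reads. Of 8 blood markers CD14 alone had an exon region, with 13 m6A and 0 IgG reads and higher, and PTPRC and HBB had none. Reads in 2 pull-downs do not measure a gene's level, and whether these few reads came from other cells was not tested.

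Where a region lay in its gene went with how often it was higher. The overlap column gives exon, intron and promoter marks, and the left and right columns give other exons within 10000 bp. From these, an exon region was put at the 3′ end when another exon of its gene was listed upstream and none downstream, at the 5′ end in the reverse case, and as internal with exons on both sides. An exon before an intron longer than 10000 bp therefore also counts as a 3′ end. A region with none on either side was classed as having no other exon near, however many exons it covers itself. Of 13403 regions at the 3′ end, 68.4% were higher, with a median of 84.4% m6A reads. Of 24582 internal regions, 34.2% were higher, with a median of 57.1%. The 6361 regions at the 5′ end stood between them, with 60.1% higher. The difference of 34.2 percentage points between 3′ end and internal regions became 27.2 points among regions of 20 to 39 reads, and 8.28 points among the few regions of 1 window. At 40 reads or more 94.1% of 3′ end and 82.5% of internal regions were higher. No test across regions was made, since they share libraries and genes.

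Internal exon regions changed with their width. Below 200 bp, 12.4% of 12081 internal regions were higher and the median was 44.4% m6A reads, close to equal rates. The share higher was 43.5% from 200 bp up to 400 bp, 53.9% up to 800 bp and 66.1% at 800 bp or more. Among internal regions of 20 to 39 reads these shares were 13.8%, 50.8%, 56.3% and 58.4%, so the step lay between the narrowest regions and the rest at like reads too. Regions at the 3′ end gave 29.8%, 65.0%, 77.7% and 89.1% over the same widths. Wider regions hold more windows from which the representative could come, and how far this raised the shares was not tested. Among regions of 1 window, 7.89% of 532 internal and 16.2% of 235 at the 3′ end were higher.

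**Figure D2:**
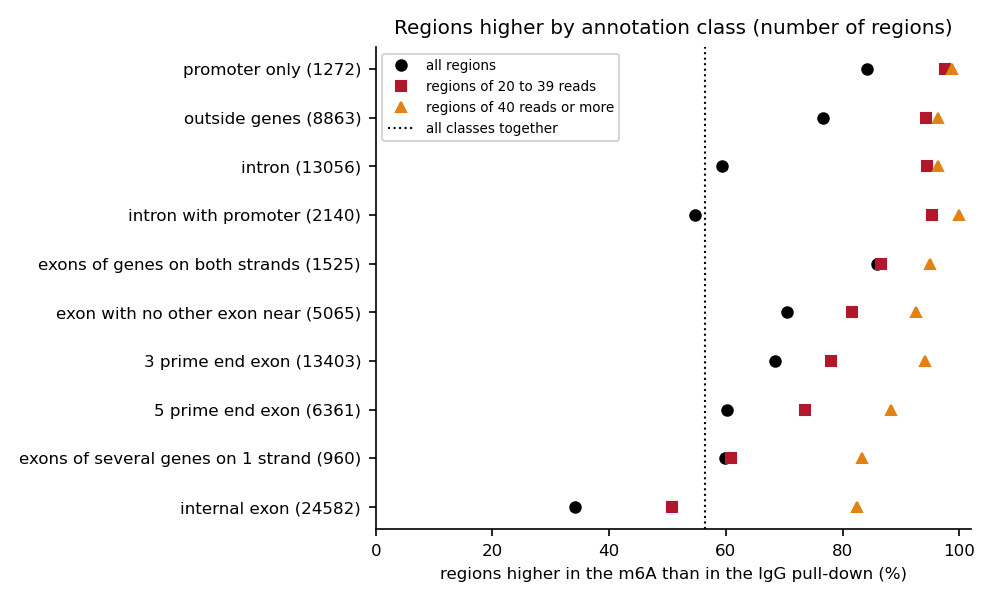
Share of regions higher in the m6A than in the IgG pull-down for each annotation class, with the number of regions in brackets, for all regions (black circles), those of 20 to 39 reads (red squares) and those of 40 reads or more (orange triangles). Internal exons are lowest at 34.2%, 50.8% and 82.5%, and promoter-only regions reach 98.8% among those of 40 reads or more; the dotted line marks all classes together.

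Regions beyond annotated exons were often higher. The 13056 regions in introns had 59.3% higher, but 94.4% among those of 20 to 39 reads. The 8863 regions outside genes had 76.7% higher, and 94.2% at 20 to 39 reads. Regions that touched only a promoter, 1272 in all, had 84.2% higher and 0 lower, with a median of 95.7% m6A reads. The IgG pull-down had 0 reads in 27.6% of intron, 40.4% of outside-gene and 44.5% of promoter-only regions, against 4.89% of internal exon regions. Which reads a region needed to be listed is not described, and how far listing raised these shares was not tested. Of the 718 lower regions, 352 (49.0%) were internal exons, 153 (21.3%) lay in introns, 105 (14.6%) at a 3′ end and 42 outside genes. The strand of the reads is not given, so upstream, antisense and overlapping transcripts could not be told apart.

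Promoter-only regions were mostly higher beside genes of each call. Beside genes whose exon region was higher, 910 of 1074 (84.7%) such pairs of gene and region were higher. Beside genes not called, 114 of 144 (79.2%) were higher, and beside lower genes 3 of 3.

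Position within a region was taken from the representative window, for gapless regions of at least 20 windows. In 3924 higher regions at a 3′ end, with a median width of 700 bp, the window lay 50.0% of the way from the 5′ edge, at a median of 290 bp from it. In 1718 higher regions at the 5′ end it lay 43.2% of the way, 170 bp from the 5′ edge and 240 bp from the 3′ edge. In 3942 higher internal regions the window was seldom at an edge, with 2.64% in the first 10% of the width, 2.74% in the last 10%, and 17.9% between 50% and 60% of the way. In 3084 internal regions not called, 8.98% lay in the first 10% of the width and 10.3% in the last, and the next 10% inwards held the most, with 12.9% on the 5′ side and 14.6% on the 3′ side. Among internal regions, windows of higher ones thus stood near the middle, and windows of those not called were spread towards both edges. These positions refer to the listed region, which may hold several exons, and not to an exon. Regions were built from neighbouring windows, and how far this set the middle position was not tested.

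**Figure D3:**
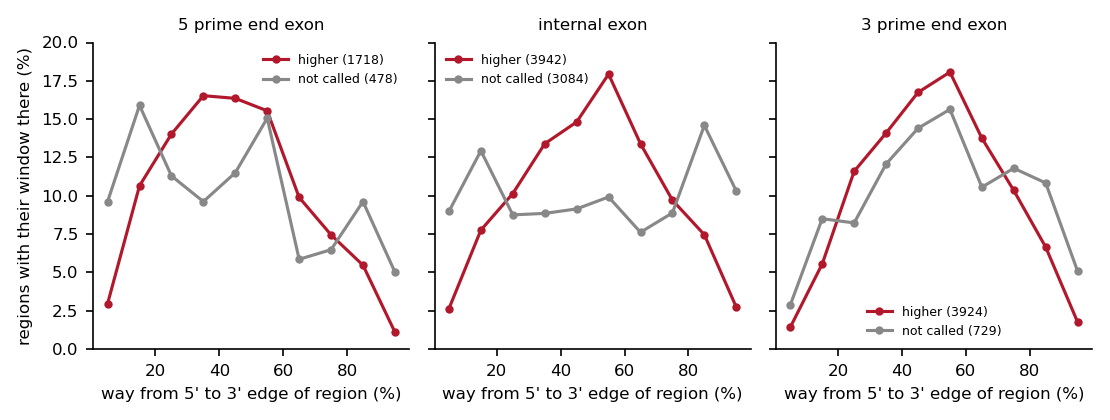
Position of the representative window within exon regions, from the 5′ edge to the 3′ edge in 10 equal bins of the region's width (horizontal axis), as a share of regions (vertical axis). Higher internal regions peak in the middle, with 17.9% between 50% and 60% of the way, and higher 5′ end regions peak in the fourth bin at 16.5%, while internal regions not called hold 12.9% and 14.6% in the bins next to the outermost ones.

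The strongest exon regions had no IgG read at all. GFOD1, an oxidoreductase-domain gene, had 89 m6A and 0 IgG reads on chr6:13363501-13365900, which is a log2 ratio of at least 5.44 when the IgG count is set to a floor of 3 reads (exact binomial adjusted p = 1.19e-30). GAS6, a ligand of the TAM receptor kinases, had 88 m6A and 0 IgG reads. RPUSD2, with a pseudouridine synthase domain, had 87 m6A and 0 IgG reads, and LRFN1, an adhesion molecule, 85 m6A and 0 IgG reads. For these 4 genes the deposited p was 0, so that the reads are the fewest that fit. CELSR3, a cadherin of planar cell polarity, had 82 m6A and 0 IgG reads. MXRA8 and N4BP3 each had 81 m6A and 0 IgG reads. The region over RABL6, a RAB-like GTPase, also holds MIR4292 and had the same 81 m6A and 0 IgG reads. DYNC1LI1, a dynein light intermediate chain, and TTL, the tubulin tyrosine ligase, each had 80 m6A and 0 IgG reads. These regions were 820 to 4950 bp wide, and their classes included 5′ end, internal and 3′ end exons and exons with no other exon near. For GAS6, CELSR3 and RABL6 the exon region with the most reads was a different one. It was higher as well, at log2 ratios of 3.35, 4.32 and 2.74, so 0 IgG reads do not describe these genes as a whole.

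Regions outside annotated exons reached similar reads. A region between genes at chr19:37799741-37800950, 2789 bp from ZNF875, had 83 m6A and 0 IgG reads. Another at chr2:85541411-85543150 lay 3900 bp from TCF7L1, an HMG-box factor of the Wnt pathway, and 1991 bp from TGOLN2, a trans-Golgi protein, with 83 m6A and 0 IgG reads. The strongest intron region, in CCDC57 at chr17:80062751-80067290, had 76 m6A and 0 IgG reads.

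The lowest exon regions were mostly narrow and internal, at 90 to 260 bp except for NCAPG2 at 820 bp. LDHA, the A subunit of lactate dehydrogenase, had 1 m6A and 22 IgG reads in a 140 bp region at chr11:18418381-18418520 (log2 ratio -3.91, exact binomial adjusted p = 0.000436). PABPC1, the cytoplasmic poly(A)-binding protein, had 1 m6A and 22 IgG reads, and PCBP2, a poly(C)-binding protein, 1 m6A and 20 IgG reads. SREBF2, the transcription factor that drives sterol synthesis, had 5 m6A and 38 IgG reads, and TOP2B, a topoisomerase, 2 m6A and 24 IgG reads. SNORA74B, a small nucleolar RNA that guides pseudouridylation, had 3 m6A and 28 IgG reads. CMPK1 and STK24 each had 1 m6A and 18 IgG reads, and CAPRIN1, GART, NCAPG2 and TM9SF2 each had 1 m6A and 17 IgG reads. Internal exons made up 10 of these 12 regions.

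Other exons of the same genes did not all share that side. The last listed LDHA region had 43 m6A and 49 IgG reads and was not called, and the 5 regions besides had between 3 and 8 m6A reads against 3 to 18 IgG reads, none called. SREBF2 had 1 of 16 exon regions higher, with 21 m6A and 3 IgG reads. The exon regions with the most reads were higher in CAPRIN1, at 56 m6A and 26 IgG reads, in GART, at 35 m6A and 22 IgG reads, in STK24, at 29 m6A and 4 IgG reads, and in TM9SF2, at 28 m6A and 0 IgG reads. PCBP2 was lower there as well, with 21 m6A and 58 IgG reads. Of these, the GART and PCBP2 calls were lost when p was multiplied by the number of windows.

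The genes with the most exon regions higher had many listed. RNF213, a giant ubiquitin ligase, had 28 of 38 exon regions higher, DST, the cytolinker dystonin, 22 of 25, and PCNT, the centrosome scaffold pericentrin, 20 of 29. KCNQ1OT1, a nuclear antisense RNA of the imprinted KCNQ1 locus, had 24 of 36, with a median of 88.2% m6A reads. TNRC18 had 18 of 21, and PTCH1, the receptor of Hedgehog ligands, 14 of 16. CENPE, DLG5 and CHD6 had 13 each, of 28, 20 and 24. Their count grows with the number of exons and regions listed, so it does not rank the genes by methylation.

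Pioneer factors open chromatin for other transcription factors and coregulators work beside them, and 17 of 18 such genes were higher (background 85.9%), with none lower and a median of 86.2% m6A reads. FOXA1, a pioneer factor of prostate epithelium, had 74 m6A and 15 IgG reads. GATA2 had 86 m6A and 20 IgG reads, and HOXB13, a prostate homeobox factor, 70 m6A and 36 IgG reads. The coactivator NCOA1 had 56 m6A and 1 IgG reads and the acetyltransferase CREBBP 92 m6A and 8 IgG reads, the fewest that fit a deposited p of 0. KDM1A, a histone demethylase, was the gene not called, with 20 m6A and 15 IgG reads.

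Among genes known to respond to androgen, 19 of the 21 with an exon region were higher (background 85.9%) and none lower. Their median of 83.8% m6A reads lay below the 89.7% of all genes. KLK3, which encodes prostate-specific antigen, gave 10 m6A and 1 IgG, 8 m6A and 3 IgG, 32 m6A and 4 IgG, and 44 m6A and 3 IgG reads in its 4 exon regions from 5′ to 3′. All but the second were higher, the last at a log2 ratio of 4.42 (95% interval 2.78 to 6.75, exact binomial adjusted p = 2.13e-13). The related kallikrein KLK2 had 83 m6A and 16 IgG reads, whereas KLK4 had 54 m6A and 50 IgG reads, a log2 ratio of 0.66 that was higher only narrowly (exact binomial adjusted p = 0.038). TMPRSS2, a serine protease, had 23 m6A and 1 IgG reads. STEAP2, a metalloreductase, had 71 m6A and 2 IgG reads. The prostaglandin receptor PTGER4, with 67 m6A and 1 IgG reads, and the matrix protease ADAMTS1, with 70 m6A and 1 IgG reads, were the most one-sided. FOLH1, which encodes prostate-specific membrane antigen, was near the other end with 56 m6A and 45 IgG reads. The calls of KLK4 and FOLH1 were both lost when p was multiplied by the number of windows in the region and when depths were taken as equal. UBE2C, with 15 m6A and 21 IgG reads, and CCNA2, with 17 m6A and 25 IgG reads, both of the mitotic cell cycle, were not called.

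**Figure D4:**
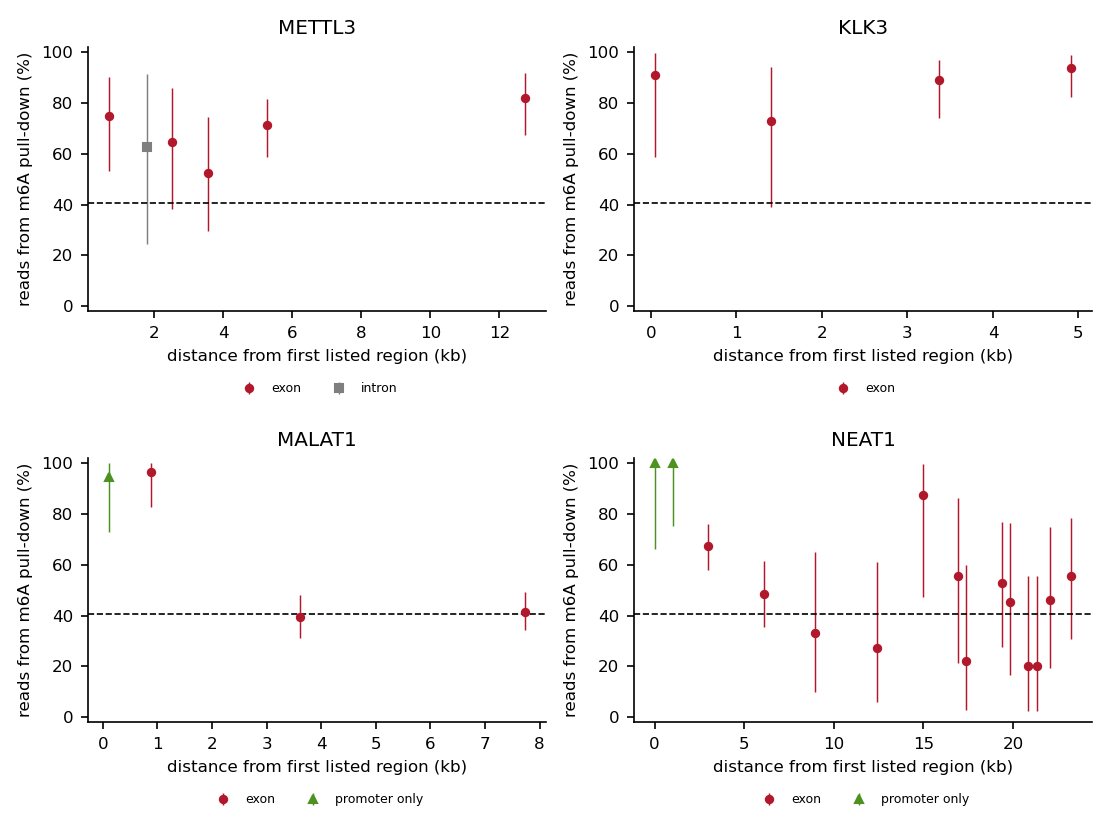
Share of reads from the m6A pull-down (vertical axis, with 95% exact binomial intervals of counting error) in each listed region of METTL3, KLK3, MALAT1 and NEAT1, by distance from the gene's first listed region in kilobases. The dashed line marks equal rates, and each value is that of the region's representative window. METTL3 exon regions lie above the line at 52.4% to 81.8%, and the windows of the long MALAT1 body regions lie on it at 39.4% and 41.6%.

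The study's series is concerned with the retinoic acid receptor RARG, and all 4 retinoid receptors with an exon region were higher (background 85.9%), with a median of 93.5% m6A reads. RARG had 20 m6A and 8 IgG reads at its 3′ end and 29 m6A and 7 IgG reads at its 5′ end, both higher. Its 3 internal regions had 8 m6A and 8 IgG, 7 m6A and 3 IgG, and 8 m6A and 5 IgG reads and were not called. RARA had 74 m6A and 2 IgG reads, and 6 of its 6 exon regions were higher. RARB, with 20 m6A and 2 IgG reads, and the partner receptor RXRA, with 72 m6A and 3 IgG reads, were higher, while RXRB and RXRG had no exon region. Of the 22 retinoid enzymes, binding proteins and orphan receptors, 11 had an exon region and 10 were higher. RDH11, a retinal reductase, had 68 m6A and 17 IgG reads. The retinaldehyde dehydrogenases parted: ALDH1A3 had 50 m6A and 0 IgG reads and was higher, while none of the 10 exon regions of ALDH1A1 was, the fullest having 3 m6A and 15 IgG reads.

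Of 23 genes of steroid metabolism 9 had an exon region, and 6 were higher (background 85.9%). The steroid sulfatase STS had 62 m6A and 0 IgG reads. HSD17B1, a 17-beta-hydroxysteroid dehydrogenase, had 79 m6A and 4 IgG reads in a region with no other exon of the gene listed near it.

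Transcripts of the m6A machinery were listed as well, at shares near those of all genes. Of 13 genes of the methyltransferases and their complex 12 were higher (background 85.9%), with a median of 86.0% m6A reads, below the 89.7% of all genes. METTL3, the catalytic subunit, had 3 of 5 exon regions higher, with 47 m6A and 19 IgG reads in the fullest, 36 m6A and 8 IgG reads at its 5′ end and 18 m6A and 6 IgG reads in a region shared with an exon of another gene. METTL14, its partner, had 63 m6A and 7 IgG reads, and WTAP, the adaptor, 70 m6A and 18 IgG reads. CBLL1 had 60 m6A and 4 IgG reads. METTL16, which methylates a hairpin of MAT2A RNA and U6, had 82 m6A and 4 IgG reads. METTL5, which methylates ribosomal RNA, had 14 m6A and 11 IgG reads in its fullest exon region, which was not called. Of its 2 exon regions 1 was lower, at 0% m6A reads.

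Both erasers were higher, FTO with 68 m6A and 16 IgG reads and ALKBH5 with 88 m6A and 27 IgG reads. Of 13 reader genes 9 were higher (background 85.9%). The cytoplasmic readers YTHDF1, YTHDF2 and YTHDF3 had 87 m6A and 12 IgG, 66 m6A and 15 IgG, and 65 m6A and 10 IgG reads, and all 11 of their listed exon regions were higher. IGF2BP2 had 38 m6A and 1 IgG reads, IGF2BP3 75 m6A and 4 IgG reads, and ELAVL1 67 m6A and 21 IgG reads. The nuclear proteins HNRNPA2B1, with 43 m6A and 62 IgG reads, and HNRNPC, with 28 m6A and 35 IgG reads, were not called.

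Signalling and regulatory genes were higher as a rule. All 24 genes of the PI3K and mTOR group, 18 Wnt ligands and receptors, 19 Wnt genes acting inside the cell, 15 Notch genes, 24 genes of the TGF-beta and BMP pathway and 30 immediate early genes with an exon region were higher (background 85.9%). Their medians were 93.8%, 95.4%, 84.8%, 91.2%, 93.3% and 92.4% m6A reads. IRS2, an insulin receptor adaptor, had 95 m6A and 9 IgG reads. The Wnt receptors FZD5 and FZD8 had 91 m6A and 7 IgG reads and 96 m6A and 17 IgG reads. NOTCH1 had 88 m6A and 5 IgG reads and its ligand JAG2 94 m6A and 6 IgG reads. SMAD6, an inhibitor of BMP signalling, had 94 m6A and 3 IgG reads. For IRS2, FZD5, JAG2 and SMAD6 the deposited p was 0 and the reads are the fewest that fit. EGR1 had 80 m6A and 24 IgG reads and JUND, an AP-1 subunit, 87 m6A and 26 IgG reads.

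MYC, the transcription factor of growth genes, had 3 of 3 exon regions higher, with 76 m6A and 38 IgG, 86 m6A and 44 IgG, and 59 m6A and 39 IgG reads. Of 13 genes of the MYC and MAX network 12 were higher (background 85.9%). Of 24 cell cycle and p53 genes 19 were higher, with a median of 72.9% m6A reads, below the 89.7% of all genes. CCND1, cyclin D1, had 102 m6A and 60 IgG reads.

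Of 34 histone lysine methyltransferases and demethylases 32 were higher (background 85.9%), and of 39 genes of mRNA decay 36. The 21 genes of SWI/SNF subunits had 15 higher, the 21 of homologous recombination and damage kinases 17, and the 31 of SR and hnRNP splicing proteins 24, the last with a median of 62.7% m6A reads. None of these genes was lower in its region with the most reads (background 0.414%). Over all their exon regions, 9 of 181 were lower in the recombination and kinase group, 7 of 351 in mRNA decay, 4 of 169 in SR and hnRNP proteins, 2 of 194 in SWI/SNF and 0 of 379 in the histone enzymes. PRKDC, a DNA repair kinase, had 7 of its 51 exon regions lower and 2 higher, with 66 m6A and 28 IgG reads in the fullest.

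Genes of basic metabolism and protein synthesis stood nearer to equal rates. Over all regions the median was 90.8% m6A reads at 40 to 79 reads and 86.0% at 80 or more. No window held more than 173 reads, and whether such a limit moved these groups, or the families below, was not tested. Of 17 glycolytic enzymes 7 were higher and none lower (backgrounds 85.9% and 0.414%), with a median of 50.0% m6A reads. ENO1 had 37 m6A and 83 IgG reads and GAPDH 45 m6A and 62 IgG reads, neither called, while PKM, with 71 m6A and 59 IgG reads, was higher, a call lost when p was multiplied by the number of windows. Of 31 translation factors 12 were higher, with a median of 48.1%, and the elongation factor EEF2 had 62 m6A and 97 IgG reads, not called. Of 22 cytosolic chaperones 10 were higher and 1 lower, with a median of 50.5%, and HSP90AA1 had 59 m6A and 76 IgG reads, not called. Of 29 genes of cholesterol and fatty acid synthesis 22 were higher and 1 lower, with a median of 76.3%. The desaturase SCD, with 71 m6A and 90 IgG reads, and the fatty acid synthase FASN, with 50 m6A and 70 IgG reads, were not called. The medians of all 4 groups lay below the 89.7% of all genes and above equal rates.

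Large families separated further. Of 478 zinc finger (ZNF) genes 473 were higher (background 85.9%) and none lower, with a median of 95.7% m6A reads, and all 38 ZBTB genes were higher. ZNF672 had 94 m6A and 16 IgG reads. All 65 protocadherins, adhesion molecules that are often encoded in very long exons, were higher, as were 148 of their 149 exon regions. PCDHB2 had 88 m6A and 2 IgG reads, the fewest that fit a deposited p of 0. Solute carriers had 216 of 229 genes higher, RAB GTPases 53 of 62, kinesins 29 of 33, USP deubiquitinases 44 of 47 and TRIM ligases 36 of 37. Long non-coding families stood near the background in the share higher, with 87 of 97 LINC genes and 261 of 294 antisense genes. Their medians, 96.25% and 92.7% m6A reads, lay above the 89.7% of all genes. Reads of an antisense gene cannot be told from those of its partner.

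Ribosomal protein, respiratory chain and histone genes had smaller shares higher than all genes. Of 81 cytosolic ribosomal protein genes 20 were higher and 4 lower (backgrounds 85.9% and 0.414%), with a median of 39.2% m6A reads. RPL8 had 56 m6A and 74 IgG reads and RPLP0 30 m6A and 63 IgG reads, neither called. Mitochondrial ribosomal proteins differed, with 60 of 77 higher, 1 lower and a median of 75.8%. Of 93 respiratory chain subunits 27 were higher and 3 lower, with a median of 47.5%, and ATP5F1B of the ATP synthase had 51 m6A and 87 IgG reads. Of 45 replication-dependent histone genes 7 were higher and 4 lower, with a median of 43.1%. H2AC6, with 47 m6A and 103 IgG reads, was lower, though not at an adjusted p of 0.01, and H1-2, with 64 m6A and 93 IgG reads, was not called. Relative to the median of all genes all 4 families lay lower, although the mitochondrial ribosomal proteins, respiratory chain subunits and histones lay above equal rates. Reads of near-identical copies, such as histones and processed pseudogenes, may be split or shared among them.

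Families were also set against all genes of like reads. Of all 5916 genes with 40 to 79 reads, 93.1% were higher, against 22.2% of 36 cytosolic ribosomal protein genes, 38.5% of 52 respiratory chain subunits and 0% of 8 histone genes. In the same bin 100% of 304 ZNF genes and 88.9% of 36 mitochondrial ribosomal proteins were higher. Cytosolic ribosomal protein genes and respiratory chain subunits had a smaller share higher than all genes in each of the 4 ranges of reads used. At 20 to 39 reads these were 7 of 22 and 2 of 20 genes against 80.4% of all, and at 80 reads or more 2 of 10 and 4 of 14 genes against 93.0%. Histone genes did not keep to this, since 6 of 7 with 20 to 39 reads were higher, with a median of 97.0% m6A reads, while 0 of 25 with 80 reads or more were. Mitochondrial ribosomal proteins with 80 reads or more had 21 of 22 higher. LINC and antisense genes had a larger share higher than all genes in each of the 4 ranges. At 20 to 39 reads these shares were 96.2% of 26 LINC and 88.2% of 76 antisense genes, against 80.4% of all.

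**Figure D5:**
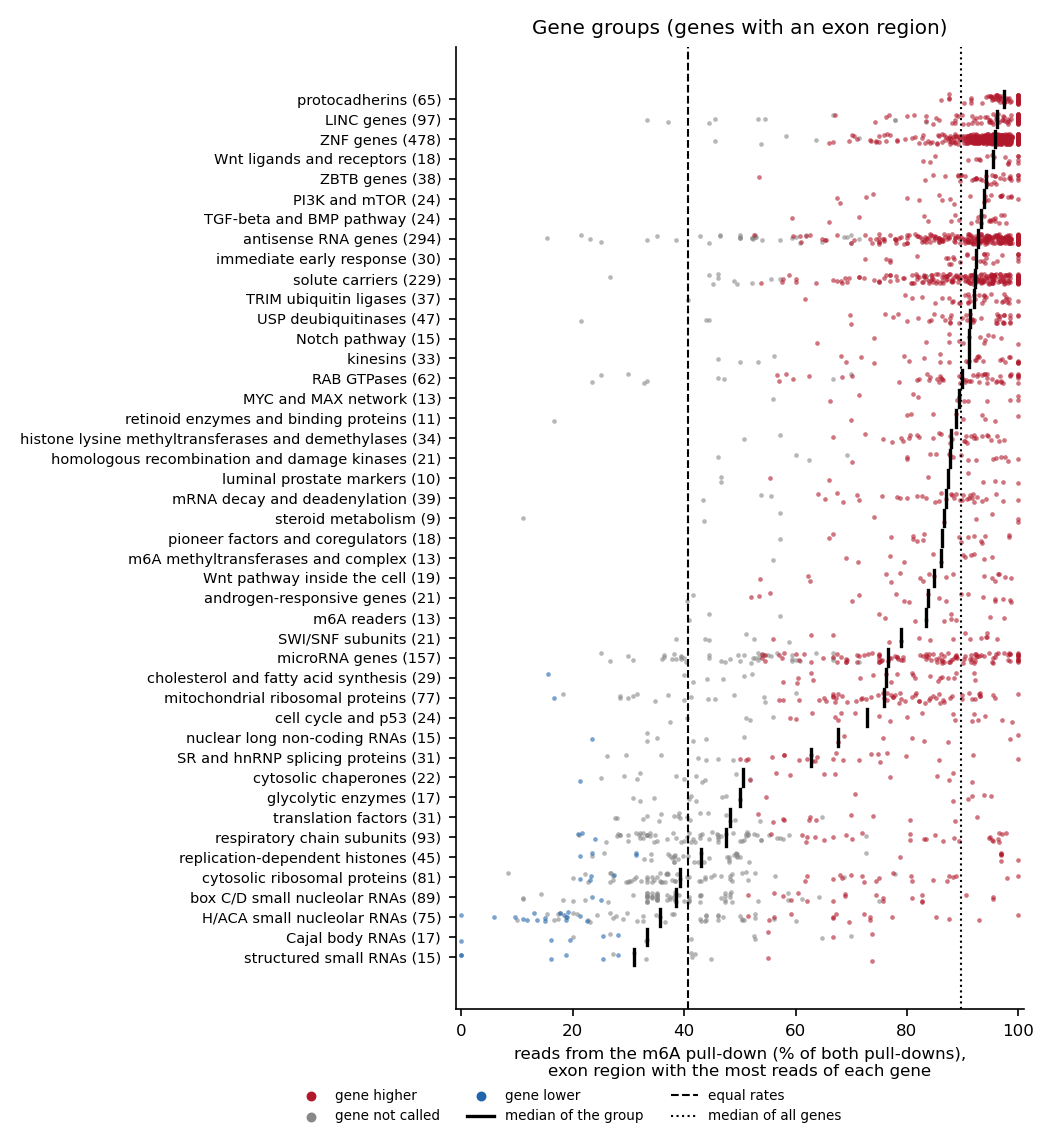
Share of reads from the m6A pull-down in the exon region with the most reads of each gene (horizontal axis), by gene group, with the number of genes in brackets and the group's median as a bar. Red genes are higher, grey ones not called and blue ones lower; the dashed line marks equal rates at 40.6% and the dotted line the 89.7% of all genes.

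Nuclear long non-coding RNAs differed along their length. The region upstream of MALAT1, marked as promoter only, had 17 m6A and 1 IgG reads and the first exon region, of 700 bp, 29 m6A and 1 IgG reads, and both were higher (exact binomial adjusted p = 9.95e-06 and 5.56e-10). The representative windows of the long regions over the body had 54 m6A and 83 IgG reads and 72 m6A and 101 IgG reads. They stood at 39.4% and 41.6%, and neither was called. The rest of these long regions is not described by a single 20 bp window. NEAT1, the RNA of paraspeckles, had 9 m6A and 0 IgG reads and 13 m6A and 0 IgG reads in 2 promoter-only regions, both higher. Its first exon region had 75 m6A and 36 IgG reads and was higher, the second had 30 m6A and 32 IgG reads and was not called, and in all 2 of 13 exon regions were higher. NORAD, with 70 m6A and 32 IgG reads, and TUG1, with 76 m6A and 18 IgG reads, were higher, and the small nucleolar host gene SNHG6, with 12 m6A and 39 IgG reads, was lower, though not at an adjusted p of 0.01. Of 15 nuclear long non-coding RNAs 8 were higher and 1 lower (backgrounds 85.9% and 0.414%).

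Short structured RNAs were often lower. Of 15 such genes 2 were higher and 6 lower (backgrounds 85.9% and 0.414%), with a median of 31.0% m6A reads. TERC, the RNA template of telomerase, had 10 m6A and 43 IgG reads, and the Cajal body RNAs SCARNA5 and SCARNA10 had 10 m6A and 52 IgG reads and 26 m6A and 76 IgG reads, all lower; the calls of TERC and SCARNA10 were lost when p was multiplied by the number of windows. SCARNA17, with 56 m6A and 20 IgG reads, was higher. Of 75 H/ACA small nucleolar RNA genes 16 were higher and 16 lower, with a median of 35.7%, and of 89 box C/D genes 19 were higher and 2 lower, with a median of 38.5%. Of 17 Cajal body RNA genes 3 were higher and 5 lower. Most of these RNAs lie inside introns or exons of host genes, and a region shared with a host cannot be divided between them.

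The microRNA genes show the same limit. Of 157 listed microRNA genes 113 were higher (background 85.9%) and none lower, with a median of 76.7% m6A reads. The regions of 121 of them also covered an exon of a gene whose symbol does not begin with MIR, and 84 of these were higher. The other 36 shared no such exon, and 29 were higher. Some of the 36 shared a region with other genes, as MIR4520-1 did with MIR4520-2 and MIRLET7A3 with MIRLET7BHG. The region over miR-4292 is that of RABL6, with 81 m6A and 0 IgG reads. The region over miR-1281 also covers EP300 and had 91 m6A and 27 IgG reads, whereas that over miR-1282 also covers SERF2 and had 54 m6A and 80 IgG reads, and that over miR-3620 also covers ARF1 and had 70 m6A and 71 IgG reads. No 2 of the sequences printed share a seed. Of the 157 genes 135 were in the RefSeq table, with 208 mature sequences and 198 seeds, of which 9 were shared by more than 1 listed gene.

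Most 22Rv1 regions were also listed for another line. At least 1 bp overlapped a region of HPr1AR in 77.6% of the 22Rv1 list (38.9% of the HPr1AR list) and a region of LNCaP in 78.9% (49.8% of the LNCaP list). When the overlap had to cover 50% of both regions, these shares of the 22Rv1 list were 41.6% and 45.4%. Regions with 0 m6A reads and regions with 0 IgG reads are both listed, so an overlap does not show a shared m6A mark.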

How the data were processed

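RNA from m6A and IgG pull-downs of vehicle-treated 22Rv1 cells was sequenced, and samples were grouped by line and antibody from their titles. Per the file headers, the authors deposited a log2 fold, a p-value and an adjusted p-value per region, with the number of windows and gene marks; no column held a value per sample. Aligner, window counter and test: not given in the sources used here. The submitters' processing notes name hg38, but only 6195 of 53940 exon pairs of gene and region (11.5%) lay within that gene's GRCh38.p14 span, so positions are the files' own, of an unknown build.

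The deposited fold of 1-window regions followed log2(a + 0.374302) minus 2 times log2(b + 0.546968) plus 22.7479, with whole reads a and b. All 2347 such regions that passed were fitted, with a largest residual of 0.000109 log2 units. With these constants, reads were found for 99.9% of regions with p above 0, and for 0.512% after a random shift of 8000 folds. Where p was 0 (135 regions) the fewest fitting reads were taken, and 84 regions gave none. Depths were derived from the constants by taking each prior as proportional to depth, with no check against sequenced reads. For ratios, 0 reads became 3 (the floor, per window), and ratios carry 95% exact binomial intervals. On simulated data of the 22Rv1 comparison, 99.98% of rebuilt reads were exact, 0.148% of 5400 unchanged regions were called, and 16.5%, 37.0% and 76.5% of 200 regions changed by 1, 2 and 4 log2 units. The simulation held no spread between samples and no choice among a region's windows. It drew read totals from regions with 1 possible pair of reads and made folds with the same fitted constants. Exactness was scored in 5959 regions with at least 1 m6A read, so regions with several fitting pairs or none are not covered. The simulated rates therefore do not measure the error of the real reads or calls.

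Each gene was represented by its exon region with the most reads. Members and gene lists were chosen with earlier results of these data known. Named were the 12 genes with the highest lower limit, the 12 with the lowest upper limit, the 10 with the most exon regions higher, the 5 strongest regions outside exons, up to 4 members of each list with the most reads, and any member of the m6A, coregulator, androgen-responsive, retinoid and marker lists; other genes named were chosen after their values were seen. Some genes are not reported here, and were left out of the lists. Alternatives covered the threshold, minimum reads, windows, centring, depths and overlap. Tools were Python 3.11.15, numpy 2.4.6, scipy 1.17.1, pandas 2.3.3, matplotlib 3.10.9 and bedtools 2.31.1.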

Additional observations from a re-analysis of the deposited data

How the results depend on the processing

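No paired analysis was possible because the tables hold no value per sample, although the labels share replicate numbers; leaving out single samples could not be done for the same reason. The counts of regions higher stayed within 1.5 times of 43620 at 33461 to 44768 under the other settings, except that regions of 1 window alone gave 462 and centring on the median region, a shift of 2.13 log2 units, gave 12646. Regions lower numbered 75 at an adjusted p of 0.01, 446 with at least 10 reads, 118 with p multiplied by the windows of a region, 34 among regions of 1 window and 15037 after centring. With a variance factor for the reads they numbered 1212 and with equal depths 2163, both settings chosen after seeing the data. The difference in the share higher between 3′ end and internal regions was 8.28 points in regions of 1 window. It was 27.2 points at 20 to 39 reads and 27.3 points from 200 bp up to 400 bp with 20 to 39 reads, both added after seeing the data. The median lay above equal rates in 31 of 32 gene lists and 14 of 18 families; above the median gene lay 9 and 10. Overlap shares were 41.6% and 45.4% at a reciprocal 50%, and 78.5% with LNCaP among the authors' calls. Of 120 named genes, 10 lost their call when p was multiplied by the windows, 5 at an adjusted p of 0.01, 5 with equal depths, 2 with a variance factor and 22 after centring with no change of sign, among these FOXA1, GATA2, KLK2, RARG, WTAP and FTO. After centring, log2 ratios changed sign to -0.63 for HOXB13, -1.47 for KLK4, -1.27 for FOLH1, -2.07 for UBE2C, -0.28 for METTL3, -2.11 for HNRNPA2B1, -1.91 for HNRNPC, -0.62 for MYC, -0.82 for CCND1, -2.05 for GAPDH, -1.32 for PKM, -1.95 for HSP90AA1, -1.99 for RPL8, -2.12 for H1-2, -1.93 for SCD, -2.07 for FASN, -2.07 for MALAT1, -0.53 for NEAT1, -0.46 for NORAD, -0.10 for SCARNA17, -0.48 for CAPRIN1, -0.92 for GART, -1.78 for KRT8 and KRT18, -1.77 for LDHA, -2.04 for NCAPG2, -1.64 for PABPC1, -1.76 for SREBF2, -1.14 for TOP2B, -1.61 for ARF1, -1.73 for ENO2 and -0.35 for PRKDC. Subtracting a constant brings this about. For COL1A1, whose IgG count was set to the floor, the value became at least -0.17, so a change of sign is not shown. Depth limits all calls, with at most 173 reads in a window.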

Other observations

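The regions listed for 22Rv1 that overlap no region of HPr1AR or LNCaP were described apart, and the genes named here were chosen after their values were seen. There were 9824 of them with rebuilt reads (12.7% of the list), with a median of 10 reads. Of these regions 51.6% were higher in the m6A than in the IgG pull-down, against 57.2% of the 67403 that overlap another line. They lay in introns in 33.2% and outside genes in 31.9%, against 14.5% and 8.49% of the others. The receptor phosphatase PTPRB had 17 such exon regions of 25 listed, 0 of them higher, and the growth factor HGF had 14 of 14, with 3 higher. The cell adhesion genes ADGRB1 and CDH6 had 10 of 11 and 10 of 10, with 8 and 7 of them higher. ALDH1A1 had 10 of 10 and the liver gene ALB, serum albumin, 8 of 8, with 0 higher in both.

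Reads could not be rebuilt for 84 regions, and their marks were chosen for mention after they were seen. Among them 4 regions lay over PABPC1, 2 over SCD and 2 over MCM4, and 1 each over RPL11, EEF2, HNRNPU, ACTG1, LDHB and TPI1, while 3 lay outside genes and 1 in an intron of HHAT. These regions are missing from every count of calls.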
